A study of Drosophila melanogaster with 4 samples.

Results

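The genes described here are 54 G protein-coupled receptors of Drosophila melanogaster for neuropeptides, peptide hormones, biogenic amines and acetylcholine, out of 17409 gene rows in each count table. They were chosen by FlyBase symbol and no measured value entered the rule, but earlier results of these data were known. All 54 were found. RNA was sequenced from dissected testes (2 libraries) and from seminal vesicles with the terminal epithelium that joins them to the testis (2 libraries). Both tissues came from adult Oregon-R-modENCODE males 4 to 5 days old, a wild-type laboratory strain with no transgene, deletion or drug in either group. Males were taken from females a day after eclosion, aged together for 3 to 4 days and kept at 25 °C under constant light. The testis was cut from its base at the junction with the seminal vesicle. Each library thus mixes many cell types, and the seminal vesicle libraries hold a part of the testis that the testis libraries may lack. The 2 replicates of each tissue were dissected on consecutive days, and p-values measure only the spread between them.

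These receptors span the cell membrane and, when a peptide or amine binds outside, switch on a heterotrimeric G protein inside. Gs raises and Gi lowers the second messenger cyclic AMP, while Gq acts through phospholipase C, calcium and protein kinase C. The male reproductive tract of Drosophila receives serotonergic axons from neurons of the abdominal ganglion, and insect visceral muscle is a known target of myosuppressin, proctolin, pyrokinins and octopamine.

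Most of the receptors that were abundant enough to test were at higher levels in the seminal vesicle, and a smaller set was at higher levels in the testis. Of the 54 members, 33 passed the filter on low counts. Of these, 22 had the higher level in seminal vesicle, 10 had it in testis and 1, mAChR-A, was not called (edgeR quasi-likelihood test, Benjamini-Hochberg adjusted p under 0.05 over 11737 genes). Over all genes tested, 86.6% were called, 42.1% with more in seminal vesicle and 44.5% with more in testis. Among the tested members, 97% were called, 66.7% with more in seminal vesicle and 30.3% with more in testis. The median log2 fold change, seminal vesicle minus testis, was 3.95 over the tested members and −0.11 over all genes tested.

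Those shares describe only the members that passed the filter. Counted over all 54, 25 had the higher mean in seminal vesicle (46.3%) and 29 the higher mean in testis, and 48.5% of the 15056 genes with a count had the higher mean in seminal vesicle. Of the 33 tested members, 7 had 10 or more counts in all 4 libraries, and of these 6 were higher in seminal vesicle and none in testis. A further 16 reached 10 counts only in both seminal vesicle libraries and 10 only in both testis libraries, so these 26 entered the test through the tissue where they were high. Without the filter the median log2 fold change over the members was −0.39. Without testis replicate 1, and likewise without testis replicate 2, CCKLR-17D3, PK1-R and hec lost their testis calls, and AstC-R2 and DopEcR were not tested.

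The difference in level was larger than the difference in number. Levels are in CPM, the standard depth-corrected unit, with library totals scaled by TMM. The levels of all 54 receptors summed to 50.4 and 50.6 CPM in testis and to 347.3 and 427.7 CPM in seminal vesicle. At 1 CPM or above in both libraries there were 12 receptors in testis and 22 in seminal vesicle, with 5 in all 4 libraries and 25 in neither tissue. At 10 CPM or above in both libraries there were 10 in seminal vesicle and none in testis. The most abundant receptor took 15.4% and 16.5% of the receptor counts in the testis libraries and 29.1% and 26.3% in the seminal vesicle libraries.

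The libraries held 11120405 to 15528462 gene counts each. Where a gene had 0 counts in a library, a level of 0.193 to 0.27 CPM before scaling remains possible (3 counts per library, counting error only). All 11 tested genes of the male germline list were higher in testis, among them S-Lap1, betaTub85D and Mst77F, and their summed level was 15878 and 20155 CPM in testis against 1452 and 3115 CPM in seminal vesicle. Of the 13 muscle markers, 12 were higher in seminal vesicle, led by Tm1, Mhc and Mlc2, with sums of 221.4 and 249.1 CPM in testis against 5272 and 4134 CPM in seminal vesicle. Of 8 epithelial markers, 7 were higher in seminal vesicle. Of 5 markers of cyst cells and the hub, 3 were higher in testis and 1 in seminal vesicle. Of 2 tested fat body markers 1 was higher in seminal vesicle, and Fbp1 had 0 counts in all libraries. In whole organs, fewer cells of a type and less RNA per cell cannot be told apart. With scaling by the added spike-in RNA, whose pool differed between the tissues, 3272 of all genes had the higher level in seminal vesicle and 6372 in testis, and of the members 22 and 11.

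Serotonin acts through 5 of the members, of which 5-HT2A and 5-HT7 were higher in seminal vesicle. The transcript of 5-HT2A, a Gq-coupled receptor on chromosome arm 3R from 4612870 to 4633304, was at 2.71 and 2.45 CPM in testis and at 101 and 112.5 CPM in seminal vesicle. The tissues stood far apart, and both seminal vesicle libraries gave the highest level among the 54 members. The fold was 41.2 (log2 fold change 5.37 ± 0.22 SE, adjusted p = 3.12e-05). The Gs-coupled receptor 5-HT7 was at 0.362 and 0.117 CPM in testis and at 13.1 and 17.4 CPM in seminal vesicle. Its tissues did not overlap, and the fold was 61.7 (5.95 ± 0.41, adjusted p = 7.15e-05). That value rested on 6 and 2 counts in testis, and without testis replicate 1 the log2 fold change was 6.97.

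The other serotonin receptors were low in both tissues and were not tested. The Gi-coupled 5-HT1A had 15 and 9 counts in testis and 1 in each seminal vesicle library, a ratio of 7.68 (95% counting interval 1.91 to 67.0). Levels of 5-HT1B, its neighbour 34.5 kb away, were 0.603 and 0.583 CPM in testis and 0.245 and 0.428 CPM in seminal vesicle. The second 5-HT2 receptor, 5-HT2B, was at 0.542 and 1.05 CPM in testis and at 0.408 and 0.428 CPM in seminal vesicle. The makeup of the 5-HT2 pair was as follows. In testis 5-HT2A gave 83.3% and 70.0% of the counts of the 5-HT2 pair (95% exact binomial intervals 70.7 to 92.1 and 56.8 to 81.2), and in seminal vesicle it gave 99.6% in both libraries (lower bounds 99.1 and 99.0).

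Octopamine and tyramine, the insect counterparts of noradrenaline and adrenaline, act through 5 of the members. Oamb, the alpha1-like octopamine receptor that raises calcium, lies on 3R from 20689018 to 20714577. It was at 1.21 and 1.52 CPM in testis and at 23.2 and 39.8 CPM in seminal vesicle, with a fold of 22.9 (4.52 ± 0.36, adjusted p = 0.000112). Octbeta2R, which raises cyclic AMP, was at 2.77 and 2.39 CPM in testis and at 19.8 and 20.7 CPM in seminal vesicle, with a fold of 7.82 (2.97 ± 0.19, adjusted p = 5.2e-05). The tissues did not overlap for either gene, and the replicates of Octbeta2R lay closest together.

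The remaining octopamine and tyramine receptors did not pass the filter. Octbeta1R was at 0.362 and 0.7 CPM in testis and at 0.245 and 0.643 CPM in seminal vesicle, where the tissues overlapped. Octbeta3R, 2.4 kb from Octbeta2R on the same strand, had 5 and 2 counts in testis and 1 in each seminal vesicle library. Oct-TyrR had 5 and 3 counts in testis and 0 and 2 in seminal vesicle. Within the beta-type pair of Octbeta2R and Octbeta1R, Octbeta2R gave 88.5% and 77.4% of the counts in testis and 98.8% and 97.0% in seminal vesicle.

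Dopamine receptors were the one amine class in which every tested member was higher in testis, 3 of 3, beside 44.5% of all genes tested. Each of the 3 reached 10 counts in both libraries of testis only, so each entered the test through the tissue where it was high. Dop1R1, the D1-like receptor known for its part in learning and arousal in the fly brain, had 18 and 23 counts in testis (1.09 and 1.34 CPM) and 0 in both seminal vesicle libraries. Against 3 counts over both seminal vesicle libraries this was at least 8.75-fold higher in testis (adjusted p = 0.00189). DopEcR, a membrane receptor for both dopamine and ecdysone, had 12 and 13 counts in testis and 0 in seminal vesicle, at least 5.33-fold higher in testis (adjusted p = 0.00371). The D2-like receptor Dop2R, which lowers cyclic AMP, had 33 counts in each testis library (1.99 and 1.92 CPM) and 2 and 1 in seminal vesicle. Its count ratio was 14.1 (95% counting interval 4.61 to 70.0, adjusted p = 0.000631).

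The fourth dopamine receptor, Dop1R2, had 2 and 7 counts in testis and 0 in seminal vesicle, too few to test. All 4 dopamine receptors were thus at low levels in testis, none above 2 CPM, and at or below 3 counts in seminal vesicle. DopEcR was not tested when either testis library was left out. Male germline markers moved with these genes, and the part they had in the result was not tested.

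Acetylcholine acts on 2 muscarinic members. mAChR-A, coupled to Gq, was at 1.45 and 1.28 CPM in testis and at 0.816 and 1.18 CPM in seminal vesicle. It was the only tested member that was not called (log2 fold change −0.48 ± 0.37, adjusted p = 0.266), and with spike-in scaling it was called at −1.52. mAChR-B, which is coupled to Gi, had 4 counts in each testis library and 1 and 0 in seminal vesicle.

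**Figure D1:**
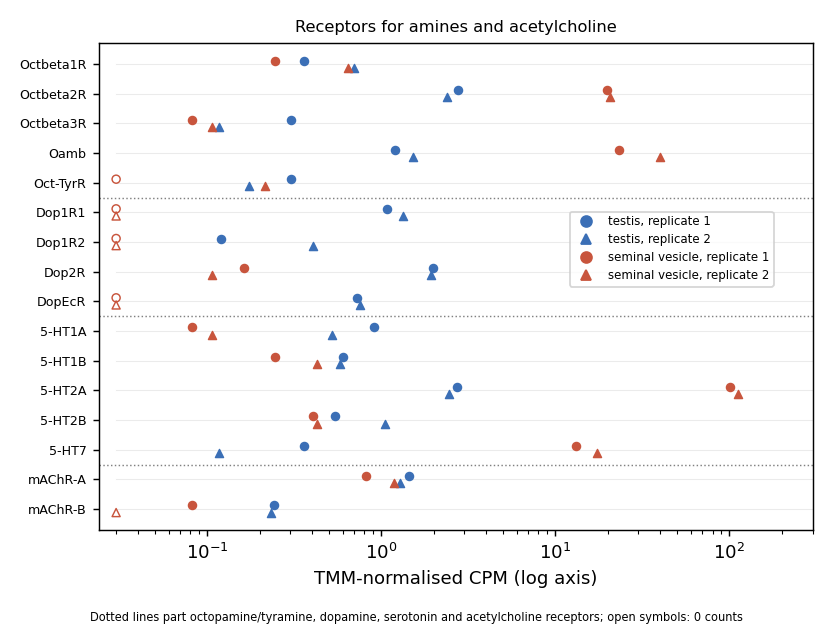
Level of each amine and acetylcholine receptor in the 4 libraries, as TMM-normalised CPM on a log axis, with 1 symbol per library and open symbols for 0 counts. 5-HT2A, 5-HT7, Oamb and Octbeta2R lie at 13.1 CPM or above in seminal vesicle, and the 4 dopamine receptors lie higher in testis than in seminal vesicle.

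The leucine-rich repeat receptors carry a large extracellular part that binds protein hormones. Of the 4, 3 were tested and these were higher in seminal vesicle, beside 42.1% of all genes tested. Of these 3, rk and Lgr4 reached 10 counts in both libraries of seminal vesicle only. Lgr1, the receptor for the glycoprotein hormone made of the GPA2 and GPB5 subunits, lies on 3R from 17725777 to 17733207. It was at 3.20 and 3.09 CPM in testis and at 24.5 and 87.2 CPM in seminal vesicle. The seminal vesicle replicates were far from each other, and both lay above testis. The fold was 17.6 (4.14 ± 0.66, adjusted p = 0.00159), and the log2 fold change was 2.95 if seminal vesicle replicate 2 was left out and 4.8 if replicate 1 was. In seminal vesicle replicates 1 and 2 the summed level of the male germline markers was 1452 and 3115 CPM and that of accessory gland and ejaculatory duct markers was 402.2 and 188.7 CPM. The part of either in the Lgr1 values was not tested.

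The bursicon receptor rk, known for hardening and darkening of the cuticle after eclosion, was at 0.965 and 0.291 CPM in testis and at 13.6 and 12.5 CPM in seminal vesicle. Its fold was 20.7 (4.37 ± 0.42, adjusted p = 0.000206), with a log2 fold change of 5.51 without testis replicate 1. Lgr4, a receptor related to the relaxin receptors of mammals, was at 0.422 and 0.525 CPM in testis and at 7.83 and 7.18 CPM in seminal vesicle (3.96 ± 0.30, adjusted p = 7.85e-05). Neither gene overlapped between the tissues. Exons of genes on the opposite strand cover 9.8% of the exon length of rk and 29.2% of that of Lgr4. Lgr3, the receptor for the growth-coordinating peptide Ilp8, had 0 to 5 counts per library and was not tested.

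Of the 24 other peptide receptors, 17 were tested, and 11 of these had more in seminal vesicle and 6 more in testis, beside the shares of 42.1% and 44.5% over all genes tested. Of the 17, only Pdfr reached 10 counts in all 4 libraries. The others entered the test through the tissue where they were high. The short neuropeptide F receptor sNPF-R, known for its roles in feeding and growth, lies on 3L from 20058511 to 20089007. It had 3 and 1 counts in testis (0.181 and 0.0583 CPM) and 182 and 180 counts in seminal vesicle (14.8 and 19.3 CPM). The fitted fold was 133 (7.06 ± 0.41, adjusted p = 3.94e-05), and without testis replicate 1 the log2 fold change was 8.02. The tissues did not overlap.

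Pdfr, the receptor of the circadian peptide PDF and coupled to Gs, lies on the X from 2552206 to 2578640. It was at 1.03 and 1.52 CPM in testis and at 33.2 and 17.1 CPM in seminal vesicle, a 19.8-fold difference (4.31 ± 0.43, adjusted p = 0.000241). Its seminal vesicle replicates differed, with the opposite order to that of Lgr1. The neuropeptide F receptor NPFR, another feeding-related receptor, was at 0.301 and 0.291 CPM in testis and at 8.32 and 7.39 CPM in seminal vesicle (4.69 ± 0.32, adjusted p = 5.66e-05). AstA-R2, a receptor for allatostatin A related to the galanin receptors, was at 0.482 and 0.525 CPM in testis and at 12.3 and 10.6 CPM in seminal vesicle. Its fold was 22.4 (4.49 ± 0.28, adjusted p = 4.54e-05), and the tissues did not overlap for either receptor. Its paralog AstA-R1 had 1 count in each testis library and 0 in seminal vesicle. The Trissin receptor, TrissinR, was at 0.422 and 0.641 CPM in testis and at 11 and 9.96 CPM in seminal vesicle (4.28 ± 0.30, adjusted p = 6.13e-05).

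Among the same 11 were receptors for pyrokinins, proctolin and myosuppressin. PK2-R1 and PK2-R2, the receptors of the pyrokinins made from the Hugin precursor, lie 4.2 kb apart on 3R on opposite strands. PK2-R2 had 2 and 1 counts in testis and 100 and 84 in seminal vesicle, a count ratio of 95.8 (95% counting interval 32.3 to 469, adjusted p = 4.5e-05). PK2-R1 had 0 and 1 counts in testis and 29 and 36 in seminal vesicle, a ratio of 102 (17.6 to 4072, adjusted p = 0.000439). Its fitted log2 fold change was 5.55 without testis replicate 1 and 8.32 without testis replicate 2. The 2 neighbours were both close to undetected in testis and both present in seminal vesicle, where PK2-R2 gave 77.5% and 70.0% of the counts of the pair.

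The proctolin receptor Proc-R was at 0.301 and 0.641 CPM in testis and at 9.05 and 7.82 CPM in seminal vesicle (4.13 ± 0.36, adjusted p = 0.000129), with a log2 fold change of 4.86 without testis replicate 2. MsR2, a receptor of myosuppressin, a peptide that slows visceral muscle, had 2 and 0 counts in testis and 16 and 10 in seminal vesicle. Its count ratio was 20.3 (5.09 to 177, adjusted p = 0.00299), and without seminal vesicle replicate 1 it was not tested. Its fitted log2 fold change was 6.99 without testis replicate 1 and 3.30 without testis replicate 2. The muscle markers were higher in the same tissue, as given above, and their part in these results was not tested. MsR1, 21.7 kb away on 3L, had 3 and 4 counts in testis and 1 and 0 in seminal vesicle.

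TkR99D, the receptor of the tachykinins, was at 0.181 and 0.233 CPM in testis and at 3.43 and 3.21 CPM in seminal vesicle (3.95 ± 0.39, adjusted p = 0.000194). CCHa1-R, a receptor for the gut and brain peptide CCHamide-1, was at 0.482 and 0.408 CPM in testis and at 2.45 and 3.96 CPM in seminal vesicle (2.80 ± 0.42, adjusted p = 0.00113). The tissues were apart in both cases.

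Of the 10 receptors of circulating hormones, 5 were not tested, 4 had more in seminal vesicle and 1, PK1-R, had more in testis. Over all genes tested the shares were 42.1% and 44.5%. Of the 5 tested, only AkhR reached 10 counts in all 4 libraries. The others entered the test through the tissue where they were high. Dh31-R, the receptor of the calcitonin-like diuretic hormone Dh31, was at 0.241 and 0.525 CPM in testis and at 17.8 and 22.2 CPM in seminal vesicle. Its fold was 50.6 (5.66 ± 0.34, adjusted p = 4.47e-05) and its log2 fold change 6.39 without testis replicate 2. The adipokinetic hormone receptor AkhR, which mobilises stored fat and sugar, was at 0.904 and 0.583 CPM in testis and at 5.79 and 2.46 CPM in seminal vesicle (2.49 ± 0.53, adjusted p = 0.00518). Without testis replicate 2 it was no longer called (adjusted p = 0.0654), and leaving out seminal vesicle replicate 1 gave a log2 fold change of 1.73.

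Dh44-R2, a receptor of the CRF-like diuretic hormone Dh44, was at 0.663 and 0.233 CPM in testis and at 2.85 and 1.93 CPM in seminal vesicle (2.42 ± 0.52, adjusted p = 0.00545). ETHR, the receptor of the ecdysis-triggering hormones, was at 0.603 and 0.175 CPM in testis and at 2.37 and 1.5 CPM in seminal vesicle (2.32 ± 0.58, adjusted p = 0.01). For both genes the tissues did not overlap, but the testis replicates differed more than 2-fold. Without testis replicate 2 neither was called, with adjusted p = 0.0583 for Dh44-R2 and 0.0856 for ETHR. Without testis replicate 1 the log2 fold changes were 3.39 for Dh44-R2 and 3.49 for ETHR. Exons of opposite-strand genes cover 33.2% of the exon length of Dh44-R2.

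The receptors that were higher in testis were fewer and lower in level. CCHa2-R, the receptor of the nutrient-responsive peptide CCHamide-2, had 129 and 143 counts in testis (7.78 and 8.34 CPM) and 8 and 3 in seminal vesicle (0.653 and 0.321 CPM). Among the 54 members it was the most abundant in testis, with a fold of 15.7 (log2 fold change −3.97 ± 0.35, adjusted p = 0.000131) and a log2 fold change of −4.60 without seminal vesicle replicate 1. SIFaR, the receptor of SIFamide, a peptide with a known role in courtship behaviour, was at 5.06 and 4.72 CPM in testis and at 0.408 and 0.643 CPM in seminal vesicle. Its fold was 9.41 (−3.24 ± 0.35, adjusted p = 0.000288). The tissues did not overlap for either gene.

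TkR86C, the receptor of natalisin, a peptide tied to mating in insects, was at 2.35 and 3.56 CPM in testis and at 0.245 and 0.428 CPM in seminal vesicle (−3.15 ± 0.49, adjusted p = 0.00129). CCKLR-17D3, a cholecystokinin-like receptor for drosulfakinin, was at 3.50 and 3.03 CPM in testis and at 0.653 and 1.82 CPM in seminal vesicle (−1.46 ± 0.47, adjusted p = 0.0262). That call was lost without testis replicate 1 (adjusted p = 0.156) and without testis replicate 2 (adjusted p = 0.117), and the log2 fold change was −0.83 with seminal vesicle replicate 1 left out and −2.32 with replicate 2 left out. AstC-R2, a receptor of allatostatin C related to the somatostatin receptors, had 12 counts in each testis library and 1 in each seminal vesicle library. Its count ratio was 7.68 (1.91 to 67.0, adjusted p = 0.00591), and it was not tested when either testis library was left out.

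The least certain testis calls were hec and PK1-R. The courtship-related receptor hec had 14 and 12 counts in testis and 3 and 2 in seminal vesicle (−1.70 ± 0.52, adjusted p = 0.0212). PK1-R, a pyrokinin receptor that takes a peptide of the Capa precursor, had 14 and 12 counts in testis and 4 and 2 in seminal vesicle (−1.45 ± 0.51, adjusted p = 0.0363). With the replicate number as a block neither was called, at adjusted p = 0.0656 for hec and 0.0954 for PK1-R. DESeq2 did not call them either, at 0.133 and 0.183, and each call was lost whichever library was left out. PK1-R lies 62.3 kb from Dop1R1 on 3R.

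**Figure D2:**
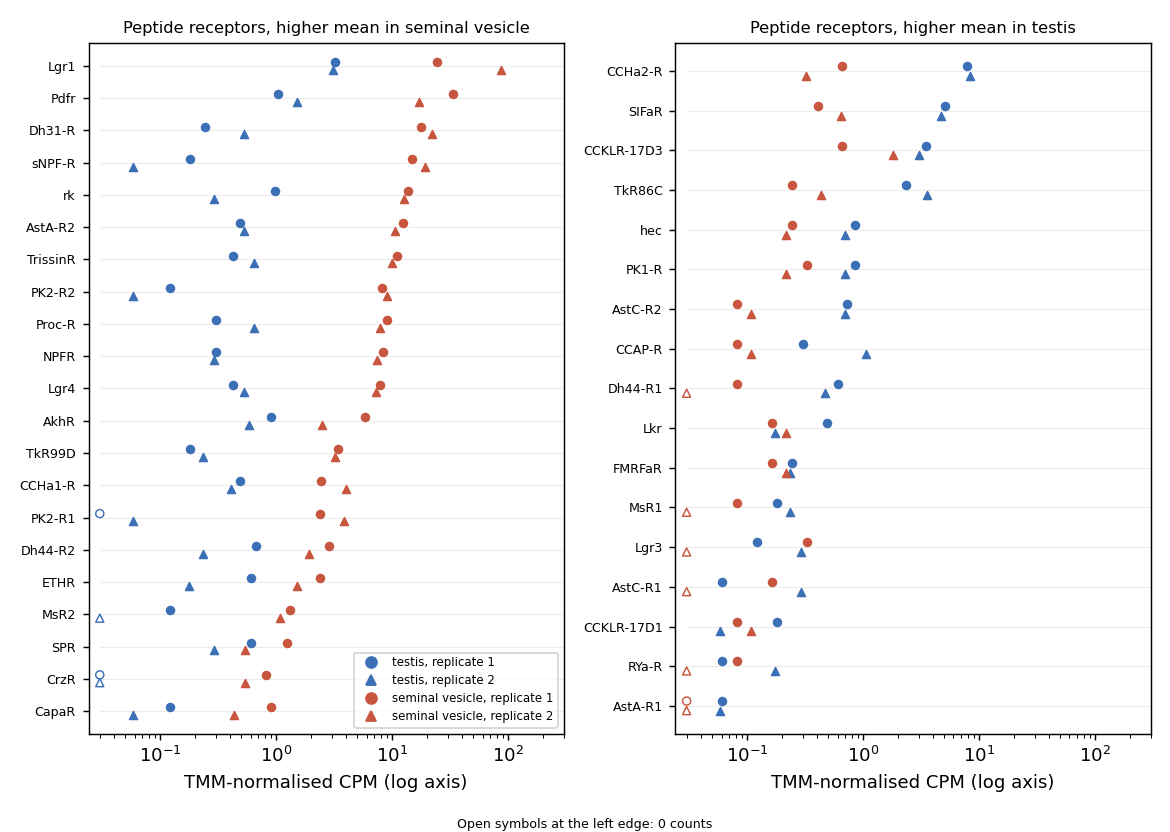
Level of each peptide, hormone and leucine-rich repeat receptor in the 4 libraries, as TMM-normalised CPM on a log axis, with 1 symbol per library and open symbols for 0 counts, receptors with the higher mean in seminal vesicle on the left and in testis on the right. Lgr1, Pdfr, Dh31-R and sNPF-R reach the highest seminal vesicle levels, and CCHa2-R and SIFaR stand highest among the receptors with more in testis.

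The 21 members that did not pass the filter held 2 to 36 counts over the 4 libraries and reached at most 1.22 CPM in a library. Their mean level was higher in testis for 18 and higher in seminal vesicle for 3, CapaR, CrzR and SPR. Over all genes with a count, tested or not, 48.5% had the higher mean in seminal vesicle. The corazonin receptor CrzR had 0 counts in testis and 10 and 5 in seminal vesicle, at least 7.81-fold higher there. CapaR, the Malpighian tubule receptor of the capa peptides, had 2 and 1 counts in testis and 11 and 4 in seminal vesicle, a ratio of 7.81 (2.21 to 42.1). The sex peptide receptor SPR, which mediates the female response to mating, was at 0.603 and 0.291 CPM in testis and at 1.22 and 0.535 CPM in seminal vesicle, where the tissues overlapped. CCAP-R, the receptor of crustacean cardioactive peptide, had 5 and 18 counts in testis and 1 in each seminal vesicle library.

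The rest of these receptors were close to the limit of counting. Dh44-R1 had 10 and 8 counts in testis and 1 and 0 in seminal vesicle, and the leucokinin receptor Lkr had 8 and 3 against 2 in each. AstC-R1, CCKLR-17D1, FMRFaR and RYa-R had between 0 and 5 counts in any library, which does not show whether they differ. When no filter was used, 5 of the 21 were called. CrzR (adjusted p = 0.00624) and CapaR (0.0202) were then higher in seminal vesicle, and 5-HT1A (0.0157), Dh44-R1 (0.0216) and CCAP-R (0.0464) higher in testis.

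**Figure D3:**
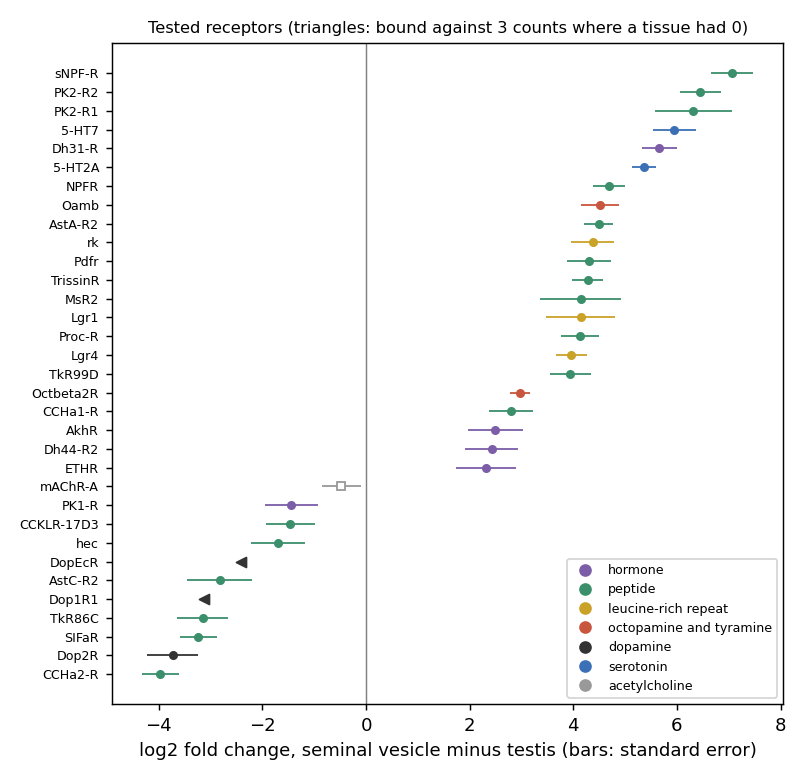
Log2 fold change, seminal vesicle minus testis, of the 33 tested receptors with bars of 1 standard error and colours for the ligand class. Triangles mark bounds for the 2 genes with 0 counts in seminal vesicle, and the open square marks mAChR-A, which was not called.

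Levels can be ordered between genes once they are divided by exon length. Among the 54 members 5-HT2A stood first in seminal vesicle at 19.7 CPM per kb of exon. Lgr1 was next at 17.3 CPM per kb, with a range of 7.59 to 27.1 that overlapped that of 5-HT2A. Dh31-R, Oamb, Pdfr and AstA-R2 followed at 6.08, 5.70, 5.39 and 4.86 CPM per kb, and these overlapped from one to the next, while AstA-R2 was apart from sNPF-R below it. The third group, sNPF-R, 5-HT7, PK2-R2, TrissinR and Octbeta2R, ran from 3.60 to 2.69 CPM per kb, again with ranges that overlapped between neighbours. The level of 5-HT2A per kb was at percentile 81.1 of all genes in seminal vesicle.

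In testis the order of the members was different and the levels lower. CCHa2-R stood first at 2.75 CPM per kb, apart from CCKLR-17D3 at 1.46 CPM per kb, which was in turn apart from those below it. Lgr1, SIFaR and TkR86C followed at 0.975, 0.973 and 0.916 CPM per kb and did not differ beyond their ranges. Of the first 6 receptors in testis, 5-HT2A and Lgr1 were also the first and second in seminal vesicle.

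For some related receptors the shares of the pair differed between the tissues. TkR99D gave 7.14% and 6.15% of the counts of the tachykinin-type pair TkR99D and TkR86C in testis (95% exact binomial intervals 1.5 to 19.5 and 1.7 to 15) and 93.3% and 88.2% in seminal vesicle (81.7 to 98.6 and 72.5 to 96.7). Dh44-R2 gave 52.4% and 33.3% of the Dh44 receptor counts in testis (29.8 to 74.3 and 9.92 to 65.1) and 97.2% and 100% in seminal vesicle (85.5 to 99.9 and 81.5 to 100). For the tachykinin-type pair the order was turned round between the tissues in both replicates, and each gene of the pair passed the test by itself. CCKLR-17D3 gave the bulk of its pair in every library, from 88.9% to 98.1%.

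The members lie on 5 arms, 3 on 2L, 8 on 2R, 11 on 3L, 23 on 3R and 9 on the X. ETHR and SIFaR are 11.5 kb apart on 3R, and the first was higher in seminal vesicle and the second in testis. The PK2 receptors were both higher in seminal vesicle, and PK1-R and Dop1R1 both higher in testis.

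The genes that make the ligands were mostly near the limit of detection in both tissues. Of 31 ligand precursor genes in the files, 8 were tested, with a median log2 fold change of −0.30. Of these 8, 4 were higher in seminal vesicle and 3 in testis, beside 42.1% and 44.5% of all genes tested. AstC, Capa, Pburs and Pdf had 0 counts in all 4 libraries, and 3 ligand genes reached 1 CPM in both testis libraries and 3 in both seminal vesicle libraries. For the 17 peptide receptors with a listed ligand that were higher in seminal vesicle, 17 ligand genes are in the files, and 0 of these were at 1 CPM or above in both seminal vesicle libraries. Without seminal vesicle replicate 1, 1 ligand gene was higher in seminal vesicle in place of 4.

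The ligand genes called higher in testis were Dh44, CCAP and SIFa. Dh44 was at 15.5 and 12.1 CPM in testis and at 0.163 and 0.535 CPM in seminal vesicle, 41.2-fold higher in testis (adjusted p = 0.000101). CCAP was at 8.50 and 11.3 CPM in testis and at 0.326 and 2.46 CPM in seminal vesicle (7.64-fold, adjusted p = 0.00586). SIFa had 24 and 22 counts in testis and 0 and 1 in seminal vesicle, a ratio of 29.4 (5.03 to 1188, adjusted p = 0.00181). SIFa and its receptor SIFaR were thus both higher in testis, while Dh44 was higher in testis and Dh44-R2 in seminal vesicle.

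The ligand genes called higher in seminal vesicle were SP, CCHa2, Akh and Ilp8. SP, the sex peptide of the accessory gland, had 0 counts in testis and 17 and 13 in seminal vesicle, at least 15.6-fold higher (adjusted p = 0.000892). Of the 10 accessory gland and ejaculatory duct markers, a list that holds SP itself, 6 of the 7 tested were higher in seminal vesicle. Their sums were 19.2 and 17.0 CPM in testis and 402.2 and 188.7 CPM in seminal vesicle, with Est-6 the most abundant, and their part in the SP value was not tested. CCHa2 had 1 and 0 counts in testis and 13 and 14 in seminal vesicle, a ratio of 42.2 (6.95 to 1727, adjusted p = 0.00136), the opposite tissue to its receptor CCHa2-R. Akh had 1 and 0 counts in testis and 15 and 9 in seminal vesicle (adjusted p = 0.00155), the same tissue as AkhR. Ilp8 was 2.38-fold higher in seminal vesicle (1.25 ± 0.36, adjusted p = 0.0161), a call that was lost with spike-in scaling (adjusted p = 0.702) and with library size alone (0.0612).

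Of 14 genes for synthesis and transport of amines and acetylcholine, 8 were tested and 7 were higher in seminal vesicle, or 4 of them with spike-in scaling. With TMM scaling, 42.1% of all genes tested were higher in seminal vesicle. The median log2 fold change of the tested genes was 2.23. Tyrosine hydroxylase, encoded by ple, was at 2.77 and 2.04 CPM in testis and at 123 and 108 CPM in seminal vesicle (47.8-fold, adjusted p = 3.12e-05). Phenylalanine hydroxylase, encoded by Hn, had 1 and 3 counts in testis and 173 and 166 in seminal vesicle (125-fold, adjusted p = 3.69e-05). The dopamine synthesis gene ple was therefore higher in the tissue where the dopamine receptors were at 3 counts or fewer.

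Other genes of the amine pathway were less different. The decarboxylase Ddc, shared by dopamine and serotonin synthesis, was 1.88-fold higher in seminal vesicle (adjusted p = 0.00621), and with spike-in scaling its log2 fold change turned to −0.13. The vesicular transporter Vmat was 9.02-fold higher and the serotonin transporter SerT 6.5-fold higher in seminal vesicle (adjusted p = 0.00026 and 0.000509). The transporter DAT had 2 and 5 counts in testis and 1 in each seminal vesicle library. Tdc2, a synthesis gene, had 8 and 6 counts in testis and 0 and 1 in seminal vesicle, and neither was tested. Tbh, which makes octopamine from tyramine, was 3.82-fold higher in testis (adjusted p = 0.00181). Trhn, the neuronal tryptophan hydroxylase of serotonin synthesis, had 0 counts in every library.

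Neuropeptide processing was represented by 4 genes, of which 3 were tested and 2 were higher in seminal vesicle, beside 42.1% of all genes tested. The carboxypeptidase svr was at 18.1 and 15.0 CPM in testis and at 582 and 712 CPM in seminal vesicle (39.0-fold, adjusted p = 4.41e-05). Cadps, which primes dense-core vesicles for release, was 7.03-fold higher in seminal vesicle, and the convertase amon was not called (log2 fold change −0.64, adjusted p = 0.252) except with spike-in scaling (−1.68). Neuron markers did not move one way, with 6 of the 10 tested higher in seminal vesicle and 2 lower there, or 2 and 3 with spike-in scaling. Their sums were 137 and 123 CPM in testis and 343 and 433 CPM in seminal vesicle, with Csp, Syx1A and unc-13 the most abundant. Of markers chosen after their values were seen, the pan-neuronal elav was at 1.15 and 1.05 CPM in testis and at 9.38 and 10.9 CPM in seminal vesicle (9.17-fold, adjusted p = 9.09e-05). The 2 called the other way were brp, 5.3-fold higher in testis (adjusted p = 0.000509), and Snap25, 6.01-fold higher in testis (adjusted p = 0.00324). VGlut, which marks glutamatergic neurons, had 3 and 6 counts in testis and 0 in seminal vesicle and was not tested. Of the 4 tested glia markers, 3 were higher in seminal vesicle, as were 4 of 4 hemocyte markers, or 2 of 4 with spike-in scaling. What part these cells have in the receptor levels was not tested.

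The proteins that carry the signal inward were measured at higher counts than the receptors. Of 15 tested genes for G protein subunits and receptor regulators, 12 were higher in seminal vesicle and 1 in testis. The shares over all genes tested were 42.1% and 44.5%, and the median log2 fold change of the list was 1.56. With spike-in scaling the counts of the list were 4 and 2. The most abundant were Gbeta13F and Ggamma1, which were 2.99-fold and 3.84-fold higher in seminal vesicle, calls that were lost with spike-in scaling (adjusted p = 0.281 and 0.0672). Galphai, the subunit of the Gi protein, was at 8.32 and 7.81 CPM in testis and at 171 and 192 CPM in seminal vesicle (22.5-fold, adjusted p = 3.35e-05). Gprk1, a kinase that desensitises active receptors, was 6.48-fold higher in seminal vesicle, and the regulator of G protein signalling loco 5.62-fold. RSG7, another regulator of G protein signalling, had 26 and 31 counts in testis and 1 and 0 in seminal vesicle, a ratio of 36.5 (6.29 to 1466, adjusted p = 0.000941).

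All 22 genes of the second messenger enzymes were tested, with a median log2 fold change of 2.65. Of these, 18 had the higher level in seminal vesicle and 3 in testis, beside 42.1% and 44.5% of all genes tested. Pde8, a phosphodiesterase that breaks down cyclic nucleotides, was at 6.93 and 7.29 CPM in testis and at 499 and 748 CPM in seminal vesicle (87.6-fold, adjusted p = 3.95e-05). Ac13E, an adenylyl cyclase that makes cyclic AMP, was at 1.81 and 1.63 CPM in testis and at 92.6 and 112 CPM in seminal vesicle (59.3-fold, adjusted p = 3.12e-05). Pkc53E, a protein kinase C, had 0 and 1 counts in testis and 123 and 102 in seminal vesicle (adjusted p = 4.58e-05). Pde8 and Ac13E belong to the cyclic AMP branch and Pkc53E to the calcium branch. They were named as the genes of the list with the largest folds toward seminal vesicle.

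In testis the called second messenger genes were Pka-C2, Ac3 and Pka-R2. Pka-C2, a relative of the catalytic subunit of protein kinase A, was at 151 and 179 CPM in testis and at 10.8 and 30.1 CPM in seminal vesicle (8.10-fold, adjusted p = 0.00192). The adenylyl cyclase Ac3 was 3.12-fold and the regulatory subunit Pka-R2 2.08-fold higher in testis (adjusted p = 0.0276 and 0.00393). Pka-C3, at 191 and 216 CPM in testis and 117 and 162 CPM in seminal vesicle, was not called (adjusted p = 0.101) except with spike-in scaling or library size alone.

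Receptors of the same superfamily outside the members formed a list of 15 genes in the files. Of the 12 tested, 6 were higher in seminal vesicle and 5 in testis, beside 42.1% and 44.5% of all genes tested. The median log2 fold change of the list was 0.54 and turned to −0.50 with spike-in scaling. GABA-B-R1, a metabotropic GABA receptor subunit, had 188 and 201 counts in testis and 0 and 4 in seminal vesicle (58.9-fold, adjusted p = 0.00027). The CNMamide receptor CNMaR had 18 and 31 counts in testis and 1 and 0 in seminal vesicle, a ratio of 31.4 (5.37 to 1264, adjusted p = 0.00248). The tyramine receptor TyrR was 9.66-fold higher in testis (adjusted p = 0.000547). On the other side, Tre1 and moody, which act in germ cell migration and in the blood-brain barrier, were 14.8-fold and 14.7-fold higher in seminal vesicle (adjusted p = 3.12e-05 and 5.35e-05).

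**Figure D4:**
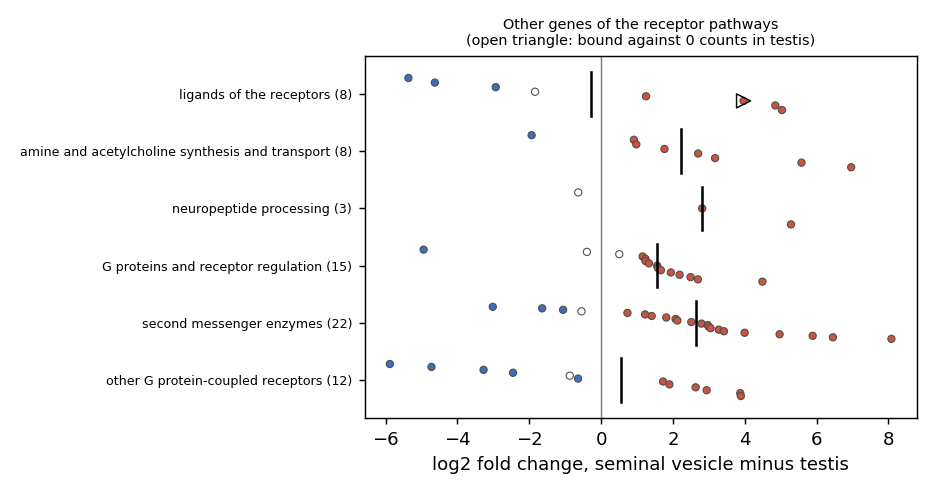
Log2 fold change, seminal vesicle minus testis, of the tested genes in 6 lists of the receptor pathways, with points in red (seminal vesicle) or blue (testis) for called genes, a triangle for the bound of SP, open points for genes not called and a black bar for each list's median. The number tested stands beside each list, and the medians run from −0.30 for ligands to 2.81 for neuropeptide processing.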

How the data were processed

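Raw read counts per gene were deposited by the authors, 1 table per library. Per the submitters' processing notes, HTSeq 0.6.1p1, TopHat2 2.1.0 and CASAVA 1.8.2 were used, and the series text gives single-end 50 bp reads mapped to FlyBase release 6.06. Per the labels, the library kit selects poly(A) RNA and keeps strand. How strand was counted is not given in the sources used here. Of 125 genes lying wholly inside exons of opposite-strand genes, 81 had 10 or more counts, against 2 of 357 inside same-strand exons. Of all reads in the tables, 1.08% to 1.16% were given to no gene, 1.57% to 3.53% were ambiguous and 8.27% to 9.57% matched more than 1 place. These 5 summary rows and the 96 spike-in rows entered neither library sizes nor tests.

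The 54 receptors and the 15 gene lists were chosen with earlier results of these data known. Symbols, exon lengths and positions came from Ensembl release 115, an annotation of the same Release 6 assembly, which named 17172 of 17409 gene rows. Of 186 list entries, 183 matched by symbol, 2 by synonym and 1 not at all. Gpa2, AANAT1, Phm, Pal1, para and wupA were not analysed here.

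In R 4.3.3, edgeR 4.0.16 was run with filterByExpr (minimum count 10, minimum total 15), TMM scaling and the robust quasi-likelihood test on all genes, seminal vesicle against testis, with Benjamini-Hochberg adjustment at 0.05. A standard error is the log2 fold change over the square root of F. A gene with 0 counts in a tissue was given a lower bound against 3 counts over both libraries, and one with 1 to 3 counts over both libraries a count ratio with a 95% counting interval. Intervals cover counting error only. The steps were tested on simulated counts.

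Any of the 54 receptors may be named. In each pathway list the 3 genes with the highest mean CPM could be named. So could up to 3 called genes with the largest fold in each direction, and the ligand and synthesis genes of the receptors described. Of marker lists, the 3 genes with the highest mean and those at 0 could be named. Not every such gene was. Outside this rule, the transporters SerT and DAT and the neuron markers elav, VGlut, brp and Snap25 were chosen after their values were seen.

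Alternatives covered scaling (size factors of DESeq2 1.42.0, library size alone, spike-in totals), filtering (none, or at least 5 CPM in 2 libraries) and the test (DESeq2, limma 3.58.1 with voom, a block for replicate number). Single libraries were also left out, and a threshold of 0.01 and levels of 0.5 and 2 CPM were tried. That equal replicate numbers share a dissection day is inferred from the series text. The differences between replicates in the 2 tissues correlated at 0.109 over genes.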

Additional observations from a re-analysis of the deposited data

How the results depend on the processing

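Of the 32 called receptors, 26 kept their call in every alternative that tested them, and none changed direction. With the replicate number as a block, 22 receptors were higher in seminal vesicle and 8 in testis (hec and PK1-R lost), and 4834 and 5122 of all genes. Spike-in scaling left 3272 of all genes higher in seminal vesicle, shifted the median of all genes from −0.11 to −1.17 and that of the receptors to 2.92, and kept all 32 receptor calls. It left 4 amine genes and 4 G protein genes higher in seminal vesicle, with 2 G protein genes and 1 processing gene higher in testis. Library size alone gave medians of −0.49 for all genes and 3.58 for the receptors. The filter of 5 CPM, which tests fewer genes, left 15 receptors higher in seminal vesicle and 2 in testis, a receptor median of 4.48, 0 ligand genes higher in seminal vesicle, 0 amine and 0 G protein genes higher in testis and 1 other receptor higher in testis. With no filter the receptor median was −0.39, with 5 ligand and 2 amine genes higher in testis. Leaving out single libraries gave 6 to 10 receptors higher in testis, a receptor median of 2.56 to 3.49 and 1 to 3 ligand genes higher in seminal vesicle, and the lone library of a tissue is then assumed to vary like the other tissue. At least 0.5 CPM in both testis libraries was reached by 20 receptors and at least 2 CPM by 7. Depth limits the calls of receptors under about 10 counts per library, and with 2 libraries a tissue the standard errors are themselves uncertain.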
